A study of Mus musculus with 9 samples.

Results

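The gamma subunits of heterotrimeric G proteins were followed in RAW 264.7 cells. This mouse line of macrophages can turn into osteoclast-like cells under RANKL, a cytokine that osteoclasts need to form. The 9 genes Gng2, Gng3, Gng5, Gng7, Gng8, Gng10, Gng11, Gng12 and Gngt2 were taken by symbol out of the 49315 genes of the count table. RNA depleted of ribosomal RNA was sequenced from 3 groups with 3 libraries each. The pamidronate + GGOH group received 140 µM pamidronate and 5.25 µM geranylgeraniol (GGOH), the pamidronate group received 140 µM pamidronate alone, and the control group received neither. By the growth notes every group, controls included, was given RANKL at 20 ng/ml after 24 h of culture, pamidronate was added after a total of 48 h, and cells were collected 24 h later. The treatment label and titles of the controls say "no treatment". They are taken here as given RANKL but no pamidronate, and this difference within the labels is not settled. All samples come from the same cell line, and the labels do not say whether every replicate was a separate culture, so p-values measure the spread between these samples.

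A heterotrimeric G protein is built of an alpha subunit, which binds GDP or GTP, and a tight dimer of a beta and a gamma subunit. When a receptor is engaged, the alpha subunit exchanges GDP for GTP and the beta-gamma dimer is set free to act on its own effectors, among them phosphoinositide 3-kinase gamma and phospholipase C beta. In macrophages and osteoclasts this route carries chemokine and other chemoattractant signals. Each gamma subunit ends in a CAAX box, a cysteine followed by residues that direct the attachment of an isoprenoid lipid, which holds the dimer at the membrane. Boxes ending in leucine are generally geranylgeranylated, and those ending in serine are generally farnesylated. Pamidronate, a nitrogen-containing bisphosphonate, inhibits farnesyl diphosphate synthase and so limits both lipids, and GGOH is an alcohol from which cells can make geranylgeranyl diphosphate.

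The last 8 codons before the stop codon are shown for the 9 genes because they set the lipid class. They were read from the GENCODE M21 transcripts (GRCm38), 5′ to 3′ on the coding strand, with the last codon in capitals.
Gng2 (chr14:19875810-19875833, minus strand): aagaagttcttctgcgccatcCTT
Gng3 (chr19:8838146-8838169, minus strand): aagaagttcttctgtgcgctcCTC
Gng5 (chr3:146503359-146503382, plus strand): ccccagaaagtctgctcctttTTG
Gng7 (chr10:80951624-80951647, minus strand): gacaaaaagccttgcataattCTC
Gng8 (chr7:16895337-16895360, plus strand): aagcgactcttttgcaccctgCTC
Gng10 (chr4:59039326-59039349, plus strand): gagcccaggtcctgtgctctaCTT
Gng12 (chr6:67017563-67017586, plus strand): gataagaagacctgcatcatcTTA
Gng11 (chr6:4008134-4008157, plus strand): gaaaagggcagctgtgtcattTCA
Gngt2 (chr11:95845582-95845605, plus strand): gagaaaggcacttgtgtgctaAGC
In each of the 9 genes the fourth codon from the end is tgc or tgt, which encodes the cysteine that carries the lipid. The last codon encodes leucine in 7 genes (Gng2, Gng3, Gng5, Gng7, Gng8, Gng10 and Gng12), the geranylgeranyl class. It encodes serine in the other two, Gng11 and Gngt2, the farnesyl class. Every annotated transcript with a full coding end gave the same 24 bases for its gene.

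RefSeq promoter windows (GRCm38.p6), from 250 bases before to 50 bases after the start, were at hand for 7 of the 9 genes. Those of Gng8 and Gng3, the members that rose most with pamidronate, and of Gng2, the member that fell most, are shown 5′ to 3′ on the strand of the gene. Capitals mark matches, on either strand, to an AP-1 motif (TGANTCA), a CRE (TGACGTCA), a GC box (GGGCGG), a PU.1 motif (GAGGAAGT) or a CACCC box (CCACCC).
Gng8 (chr7:16891536-16891835, plus strand): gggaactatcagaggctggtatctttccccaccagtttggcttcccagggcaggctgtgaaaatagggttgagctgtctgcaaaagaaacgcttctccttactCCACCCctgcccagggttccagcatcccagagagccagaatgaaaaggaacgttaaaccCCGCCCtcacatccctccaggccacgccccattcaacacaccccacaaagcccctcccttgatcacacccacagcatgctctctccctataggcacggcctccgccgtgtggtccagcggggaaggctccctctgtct
Gng3 (chr19:8839197-8839496, minus strand): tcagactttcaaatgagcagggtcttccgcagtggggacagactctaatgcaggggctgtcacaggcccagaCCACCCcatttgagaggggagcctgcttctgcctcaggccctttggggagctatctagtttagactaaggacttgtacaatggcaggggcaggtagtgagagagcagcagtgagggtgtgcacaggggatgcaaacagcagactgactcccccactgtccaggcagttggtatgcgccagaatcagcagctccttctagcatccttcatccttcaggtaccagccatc
Gng2 (chr14:19976644-19976943, minus strand): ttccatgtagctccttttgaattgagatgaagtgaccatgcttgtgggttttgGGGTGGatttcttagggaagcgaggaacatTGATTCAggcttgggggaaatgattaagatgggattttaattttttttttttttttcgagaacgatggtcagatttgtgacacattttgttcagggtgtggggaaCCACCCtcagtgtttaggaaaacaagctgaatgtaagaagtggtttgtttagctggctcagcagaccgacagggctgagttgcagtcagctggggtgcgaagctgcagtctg
The Gng8 window held 1 GC box and 1 CACCC box, and the Gng3 window held 1 CACCC box. The Gng2 window held 1 AP-1 match and 2 CACCC boxes. It lies wholly inside the Gng2 gene as counted (chr14:19872559-19977627), because the RefSeq start used is not the 5′ end of that gene model. No matches overlapped one another in these windows, and none held a CRE or the PU.1 motif. Of 32817 mouse promoter windows of the same length, 7.81% held the AP-1 motif, 1.79% the CRE, 35.6% the GC box, 3.2% the PU.1 motif and 31.5% the CACCC box.

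Library totals ran from 14356069 to 18957968 counts. After a filter on low counts 15963 genes were tested, among them 8 of the 9 members. On the first principal component of log2 CPM (counts scaled to library size), replicate 3 of pamidronate + GGOH lay at -11.5, apart from 29.8 and 18.9 for the other two libraries of its group. The pamidronate libraries lay between 69.6 and 84.6 and the controls between -93.3 and -79.3. That replicate was also the one nearest to the control mean for 6 of the 8 members tested. Of 12 macrophage markers, 12 had counts in every group. Their summed level was 6910 to 9987 CPM in pamidronate + GGOH, 4846 to 6838 in pamidronate and 16003 to 20745 in control libraries. The 12 osteoclast markers summed to 1009 to 1338 CPM in pamidronate + GGOH, 668.5 to 838.7 in pamidronate and 1093 to 1518 in control libraries, and Calcr, the calcitonin receptor, was at 0 in pamidronate and control libraries. Lists for B cells, T cells, neutrophils, endothelial, epithelial and bone-forming cells each summed to at most 154.2 CPM in any library. The endothelial list summed to 27.7 to 56.9 CPM in pamidronate + GGOH, 14.12 to 14.99 in pamidronate and 5.96 to 7.50 in control libraries. The B cell list summed to 32.4 to 80.1 CPM in pamidronate + GGOH, 28.2 to 35.4 in pamidronate and 106.4 to 154.2 in control libraries. Of its 6 genes, 6 had a count in pamidronate + GGOH, 5 in pamidronate and only 3 in control, so the control sum rested on those 3. Mitochondrially encoded genes took 5.43 to 6.31% of counts in pamidronate + GGOH, 3.71 to 5.19% in pamidronate and 10.4 to 10.8% in control libraries. Malat1, a long noncoding RNA of the nucleus, took 2.39 to 2.82% in pamidronate + GGOH, 4.53 to 4.99% in pamidronate and 1.35 to 1.66% in control libraries. Gm26917 took 10.04 to 11.7% in pamidronate + GGOH, 12.1 to 12.9% in pamidronate and 7.17 to 8.41% in control libraries. The part of these differences in the results below was not tested, and in bulk RNA fewer cells of a type and less RNA per cell cannot be told apart.

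With pamidronate alone, the gamma subunit genes moved in opposite directions. Gng8 and Gng3, genes best known from sensory neurons and brain, were 23.0-fold and 15.9-fold higher than in control, and the broadly expressed Gng5 was 1.58-fold higher. Gng2 was 5.87-fold lower, Gng7 3.36-fold, Gng10 2.53-fold, Gngt2 2.40-fold and Gng12 2.29-fold lower. So 3 members were called higher and 5 lower out of 8 tested, called meaning a Benjamini-Hochberg adjusted p under 0.05 in the quasi-likelihood test of edgeR. In this comparison 69.2% of all genes tested were called, 36.2% higher and 32.9% lower, so that a called gene was the common outcome. The groups did not overlap for any of the 8 members, against 73.4% of all genes without overlap. Of the members, 7 were called and at least 2-fold apart, against 37.9% of all genes. The members' median log2 fold change was -1.23, against 0.08 over all genes tested.

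Gng8 encodes a gamma subunit known in the mouse from olfactory and vomeronasal sensory neurons. The gene lies on chr7:16891786-16895436, plus strand, in the GRCm38 build that the coordinates here use. Its level was 6.07, 5.92 and 3.89 CPM in the 3 pamidronate + GGOH libraries, 12.0, 13.2 and 18.5 CPM in the pamidronate libraries and 0.818, 0.448 and 0.618 CPM in the controls. No 2 groups overlapped, and the controls rested on 14, 8 and 10 counts. The log2 fold change of pamidronate against control was 4.52 ± 0.28 (SE), with an edgeR adjusted p of 9.36e-09. With GGOH added, Gng8 was lower than with pamidronate alone (log2 fold change -1.46 ± 0.22, edgeR adjusted p = 7.03e-05) and still above control (3.06 ± 0.30, edgeR adjusted p = 3.54e-06).

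Gng3, the gamma subunit gene best known from neurons, lies on chr19:8836929-8839246, minus strand. It stood at 7.04, 5.11 and 3.15 CPM in pamidronate + GGOH, 13.0, 12.8 and 14.7 CPM in pamidronate and 0.876, 0.616 and 1.05 CPM in control libraries. The groups did not overlap, and the spread was widest among the pamidronate + GGOH libraries. Its log2 fold change was 3.99 ± 0.29 for pamidronate against control (edgeR adjusted p = 3.58e-08), -1.41 ± 0.23 for pamidronate + GGOH against pamidronate (edgeR adjusted p = 0.000194) and 2.58 ± 0.30 for pamidronate + GGOH against control (edgeR adjusted p = 1.55e-05). Of its 1699 exon bases, 398 (23.4%) also belong to Bscl2, the seipin gene on the opposite strand. Bscl2 was lower with pamidronate than in control (log2 fold change -0.38 ± 0.11, edgeR adjusted p = 0.00698), the opposite direction to Gng3.

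The filter kept a gene at about 0.601 CPM or more in at least 3 libraries. Gng8 reached that level in 1 of 3 control libraries and Gng3 in 2 of 3, and both reached it in every library with pamidronate. Both genes therefore entered the test through the groups in which they were high. Among the 3422 genes tested with a mean under 1 CPM in the control, 58.3% were called higher with pamidronate, and 267 had a fold change at least as large as that of Gng3, itself included.

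Gng5 encodes a broadly expressed gamma subunit and lies on chr3:146499807-146505572, plus strand. It was measured at 52.8, 50.2 and 57.1 CPM in pamidronate + GGOH, 75.8, 78.4 and 75.8 CPM in pamidronate and 56.3, 44.5 and 44.4 CPM in control libraries. The pamidronate libraries were above all others, and the other groups overlapped in CPM. The log2 fold change was 0.66 ± 0.10 for pamidronate against control (edgeR adjusted p = 3.47e-05) and -0.52 ± 0.10 for pamidronate + GGOH against pamidronate (edgeR adjusted p = 0.000604). Pamidronate + GGOH and control differed by 0.14 ± 0.10, which was not called (edgeR adjusted p = 0.246). The near-identical copies of Gng5 in the table, Gm13342, Gm3150, Gm47192 and Gng5-ps, held 0 to 17 counts a group, against 2824 in pamidronate + GGOH, 3703 in pamidronate and 2476 in control for Gng5 itself. Further copies, AC170998.1 and Gm3785, were not in the table.

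**Figure D1:**
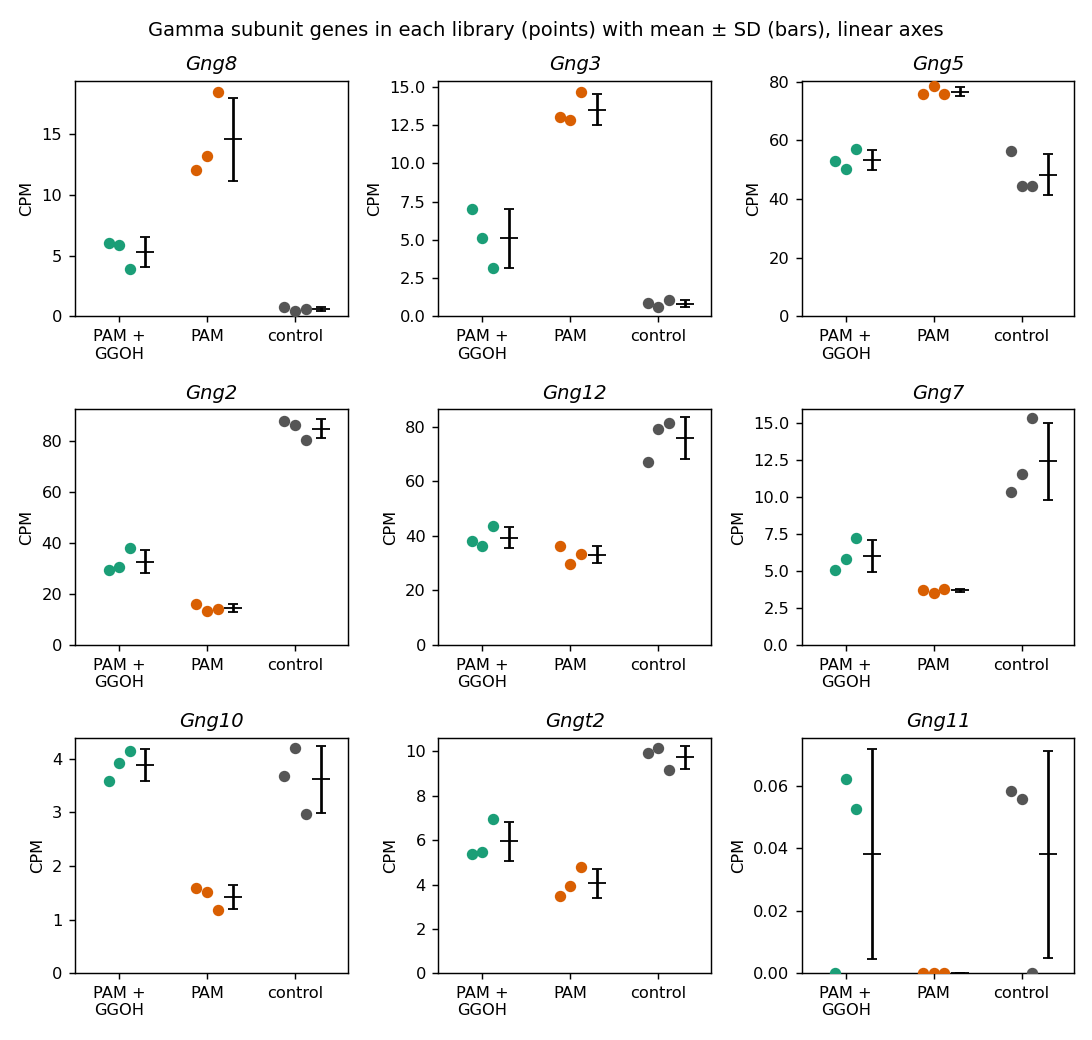
CPM of the 9 gamma subunit genes in each library, on linear axes that start at 0, with pamidronate + GGOH (PAM + GGOH), pamidronate (PAM) and control from left to right. Points are libraries and bars the mean ± SD of 3. Gng8, Gng3 and Gng5 are highest in the pamidronate libraries, 5 genes are lowest there, and Gng11 holds 0 or 1 count in every library.

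Gng2 encodes a widely expressed gamma subunit that commonly pairs with the beta subunit of Gnb1. It lies on chr14:19872559-19977627, minus strand, and had the highest mean level per length of the 9 in the controls. Its level was 29.5, 30.8 and 38.0 CPM in pamidronate + GGOH, 16.1, 13.2 and 14.1 CPM in pamidronate and 87.8, 86.3 and 80.6 CPM in control libraries. The 3 groups were well apart, with pamidronate + GGOH between the others. The log2 fold change was -2.55 ± 0.12 for pamidronate against control (edgeR adjusted p = 1.23e-09), 1.18 ± 0.11 for pamidronate + GGOH against pamidronate (edgeR adjusted p = 2.08e-06) and -1.37 ± 0.11 for pamidronate + GGOH against control (edgeR adjusted p = 6.88e-07). Gm48283, a copy of Gng2 at 100% identity over 897 bases, was not in the count table, and its bearing on the counts of Gng2 was not tested.

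Gng12, another widely expressed gamma subunit gene, lies on chr6:66896397-67021350, plus strand. It stood at 38.1, 36.2 and 43.6 CPM in pamidronate + GGOH, 36.1, 29.8 and 33.3 CPM in pamidronate and 66.9, 79.0 and 81.4 CPM in control libraries. The controls were far above both groups with pamidronate. Pamidronate differed from control by -1.20 ± 0.11 on the log2 scale (edgeR adjusted p = 2.38e-07) and pamidronate + GGOH from control by -0.95 ± 0.11 (edgeR adjusted p = 1.18e-05). Gng12 was the only one of the 8 members tested whose level with GGOH was not called different from pamidronate alone (log2 fold change 0.25 ± 0.11, edgeR adjusted p = 0.071). These groups touched without overlapping, at 36.2 CPM for the lowest pamidronate + GGOH library and 36.1 CPM for the highest pamidronate library. The call depended on the libraries and the filter, with adjusted p-values of 0.0345 without pamidronate + GGOH replicate 2, 0.0497 without replicate 1 of that group, 0.0402 without control replicate 3 and 0.036 with no filter.

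Gng7, known in the striatum as the partner of the olfactory-type alpha subunit encoded by Gnal, lies on chr10:80948624-81014945, minus strand. Its level was 5.05, 5.79 and 7.20 CPM in pamidronate + GGOH, 3.73, 3.54 and 3.78 CPM in pamidronate and 10.3, 11.6 and 15.3 CPM in control libraries. No groups overlapped. The log2 fold change was -1.75 ± 0.19 for pamidronate against control (edgeR adjusted p = 1.53e-06), 0.71 ± 0.20 for pamidronate + GGOH against pamidronate (edgeR adjusted p = 0.00823) and -1.04 ± 0.18 for pamidronate + GGOH against control (edgeR adjusted p = 0.000326).

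Gng10, on chr4:59035088-59041903, plus strand, encodes a widely expressed gamma subunit. It was measured at 3.58, 3.92 and 4.15 CPM in pamidronate + GGOH, 1.59, 1.52 and 1.18 CPM in pamidronate and 3.68, 4.20 and 2.97 CPM in control libraries. The pamidronate libraries were below all others, and pamidronate + GGOH and control overlapped in CPM. The log2 fold change was -1.34 ± 0.23 for pamidronate against control (edgeR adjusted p = 0.000132) and 1.44 ± 0.23 for pamidronate + GGOH against pamidronate (edgeR adjusted p = 0.00015). Pamidronate + GGOH and control differed by 0.10 ± 0.21 (edgeR adjusted p = 0.704). Of the 1314 exon bases of Gng10, 946 (72%) are shared with Gm20503, a gene on the same strand with 0 counts in every library, so that its level per length depends on which bases are counted.

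Gngt2 encodes the gamma subunit of cone photoreceptors and is the only member of the farnesyl class that could be tested. It lies on chr11:95837216-95845734, plus strand. Its level was 5.39, 5.48 and 6.94 CPM in pamidronate + GGOH, 3.48, 3.92 and 4.77 CPM in pamidronate and 9.93, 10.1 and 9.15 CPM in control libraries. No groups overlapped. Pamidronate differed from control by -1.26 ± 0.18 on the log2 scale (edgeR adjusted p = 1.57e-05) and pamidronate + GGOH from control by -0.71 ± 0.17 (edgeR adjusted p = 0.00282). The difference of pamidronate + GGOH from pamidronate was 0.55 ± 0.18 (edgeR adjusted p = 0.0195). It was no longer called without pamidronate + GGOH replicate 3 (edgeR adjusted p = 0.0639), without pamidronate replicate 1 (0.0899) or without pamidronate replicate 2 (0.0637). Of the exon bases of Gngt2, 12.5% are shared with Abi3, an actin regulator gene on the opposite strand, which was itself lower with pamidronate than in control (log2 fold change -1.05 ± 0.21, edgeR adjusted p = 0.000388).

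Gng11, the other farnesyl-class member, lies on chr6:4003904-4008445, plus strand. It held 0, 1 and 1 counts in pamidronate + GGOH, 0 in each pamidronate library and 1, 1 and 0 counts in the controls. At this depth 3 counts over a group correspond to 0.0623 CPM in pamidronate + GGOH, 0.0605 CPM in pamidronate and 0.0547 CPM in control, so no difference in Gng11 was detectable. Among gamma subunit genes outside the 9, Gng4 held 4 to 12 counts a library and was not called in any comparison, Gng13 held at most 3 counts a library and Gngt1 held 0 in all 9. With pamidronate against control, 3 of the 7 geranylgeranyl-class members were called higher and 4 lower, and Gngt2, the 1 farnesyl-class member tested, was called lower. Of all genes tested, 36.2% were called higher and 32.9% lower in that comparison. With only 1 farnesyl-class gene tested, the classes cannot be compared.

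With GGOH added, 4 members were higher than with pamidronate alone (Gng2, Gng7, Gng10 and Gngt2), 3 were lower (Gng3, Gng5 and Gng8) and Gng12 was not called. In this comparison 48.8% of all genes tested were called, 25.2% higher and 23.6% lower. The groups did not overlap for any of the 8 members tested, nor for 59.6% of all genes, and 4 members were called and at least 2-fold apart, against 16.2% of all genes. The median log2 fold change was 0.40 for the 8 members tested and 0.00 over all genes. Against the control, pamidronate + GGOH had 2 members called higher (Gng3 and Gng8), 4 called lower (Gng2, Gng7, Gng12 and Gngt2) and 2 not called (Gng5 and Gng10), with medians of -0.30 and 0.02. Over all genes 52.4% were called in that comparison, 26.3% higher and 26.0% lower. There 6 of the 8 members showed no overlap of the groups in CPM, against 58.2% of all genes. Of the members, 4 were called and at least 2-fold apart, against 19.3%. These comparisons share libraries with that of pamidronate against control, so the values are set side by side only as a description. As a share of the log2 difference between pamidronate and control, the difference between pamidronate + GGOH and pamidronate amounted to 108% for Gng10 and 78.5% for Gng5. It was 46.2% for Gng2, 43.7% for Gngt2 and 40.5% for Gng7. The smallest shares were 35.3% for Gng3, 32.4% for Gng8 and 20.9% for Gng12. These shares depend on the scaling. In TPM, the authors' deposited level per length, Gng5 ran from 52.7 to 59.2 in pamidronate + GGOH and from 37.1 to 43.3 in control libraries. Gng10 ran from 7.57 to 9.06 TPM in pamidronate + GGOH and from 5.33 to 7.38 in control libraries. On that scale, which was not tested, pamidronate + GGOH and control did not overlap for either gene. Without replicate 3 of pamidronate + GGOH, the difference from pamidronate was 1.10 ± 0.11 for Gng2, -1.11 ± 0.20 for Gng3, -1.24 ± 0.21 for Gng8, 0.60 ± 0.21 for Gng7 and 1.43 ± 0.26 for Gng10 on the log2 scale, each still called, while Gngt2, at 0.46 ± 0.19, was no longer called (edgeR adjusted p = 0.0639).

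**Figure D2:**
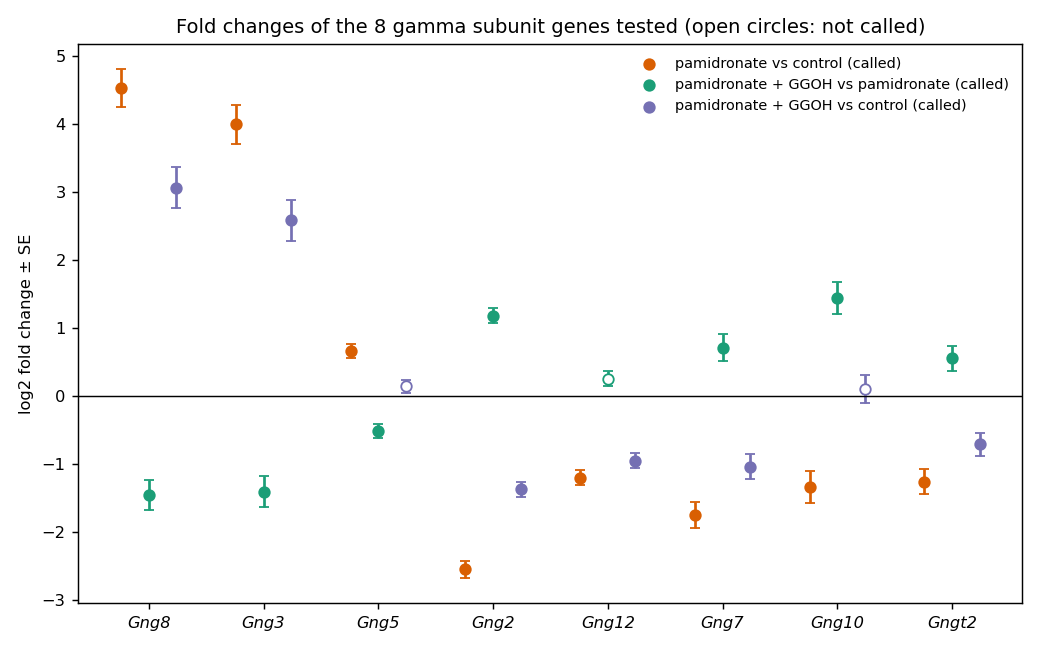
Log2 fold change ± SE of the 8 gamma subunit genes tested, in each of the 3 comparisons. Filled circles were called and open circles were not. With pamidronate against control Gng8 and Gng3 reach 4.52 and 3.99 and Gng2 reaches -2.55, while Gng5 and Gng10 lie near 0 for pamidronate + GGOH against control, at 0.14 and 0.10.

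The order of the members per length changed with treatment. TPM, the authors' deposited measure, divides counts by exon length and so allows genes to be set beside each other. In pamidronate + GGOH, Gng5 led at 55.0 ± 3.63 TPM (SD, n = 3), above Gng12 at 23.7 ± 2.38 and Gng2 at 21.3 ± 3.16, whose ranges overlapped. Gng8 at 9.90 ± 2.24, Gngt2 at 9.02 ± 1.38, Gng3 at 8.52 ± 3.10 and Gng10 at 8.43 ± 0.775 TPM followed, each overlapping the next, above Gng7 at 4.54 ± 0.874. In pamidronate, Gng5 stood at 68.8 ± 1.36 TPM, above Gng8 at 23.7 ± 5.29, Gng3 at 19.7 ± 1.42 and Gng12 at 17.4 ± 2.08, of which each overlapped the next. Gng2 at 8.19 ± 1.04 and Gngt2 at 5.36 ± 0.787 came after them, and Gng10 at 2.70 ± 0.454 and Gng7 at 2.42 ± 0.122 overlapped. In control, Gng2 at 43.8 ± 1.49, Gng5 at 39.4 ± 3.36 and Gng12 at 36.5 ± 5.61 TPM were highest, with each range overlapping the next. They were followed by Gngt2 at 11.7 ± 0.643, then Gng7 at 7.48 ± 1.91 and Gng10 at 6.22 ± 1.05, which overlapped, and Gng3 at 1.13 ± 0.313 and Gng8 at 0.927 ± 0.233, which also overlapped. Gng8 and Gng3 thus ranked 8 and 7 of 9 in the controls and 2 and 3 with pamidronate. The place of Gng10 depended on the exon length used. Counted only over exon bases that no other gene shares, an alternative added after seeing the data, Gng10 stood at 30.1 ± 2.77 TPM in pamidronate + GGOH, 9.65 ± 1.62 in pamidronate and 22.2 ± 3.75 in control (SD, n = 3 each). On that scale its mean was second to that of Gng5 in pamidronate + GGOH, where Gng12 was at 24.4 ± 2.44 and Gng2 at 21.3 ± 3.16 TPM. It was also above the mean of Gng2 in pamidronate, at 8.19 ± 1.04 TPM, and above that of Gngt2 in control, at 13.4 ± 0.734 TPM. Gng3, at 25.8 ± 1.85 TPM in pamidronate, was then above Gng8 at 23.7 ± 5.29.

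The summed level of the 9 genes per length was 140.5 ± 6.79 TPM in pamidronate + GGOH, 148.3 ± 6.45 in pamidronate and 147.2 ± 5.18 in control (SD, n = 3 each), with overlapping ranges. The make-up of that sum differed. Gng2 held 15.1 ± 1.51% of it in pamidronate + GGOH, 5.52 ± 0.658% in pamidronate and 29.7 ± 0.848% in control. Gng8 held 7.11 ± 1.88% in pamidronate + GGOH, 15.9 ± 2.99% in pamidronate and 0.633 ± 0.177% in control. Gng3 held 6.14 ± 2.45% in pamidronate + GGOH, 13.3 ± 0.396% in pamidronate and 0.768 ± 0.205% in control. With pamidronate alone these genes, each under 1% of the control sum, both held more than Gng2. Gng5 held 39.1 ± 0.738% in pamidronate + GGOH, 46.5 ± 2.65% in pamidronate and 26.9 ± 3.28% in control. The order of the sums depended on the scale. In CPM per kilobase of exon with TMM factors, the sum was 49.3 ± 2.30 in pamidronate + GGOH and 59.8 ± 2.68 in pamidronate, against 65.0 ± 1.31 in control. The ranges of the control and both other groups did not overlap on that scale.

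**Figure D3:**
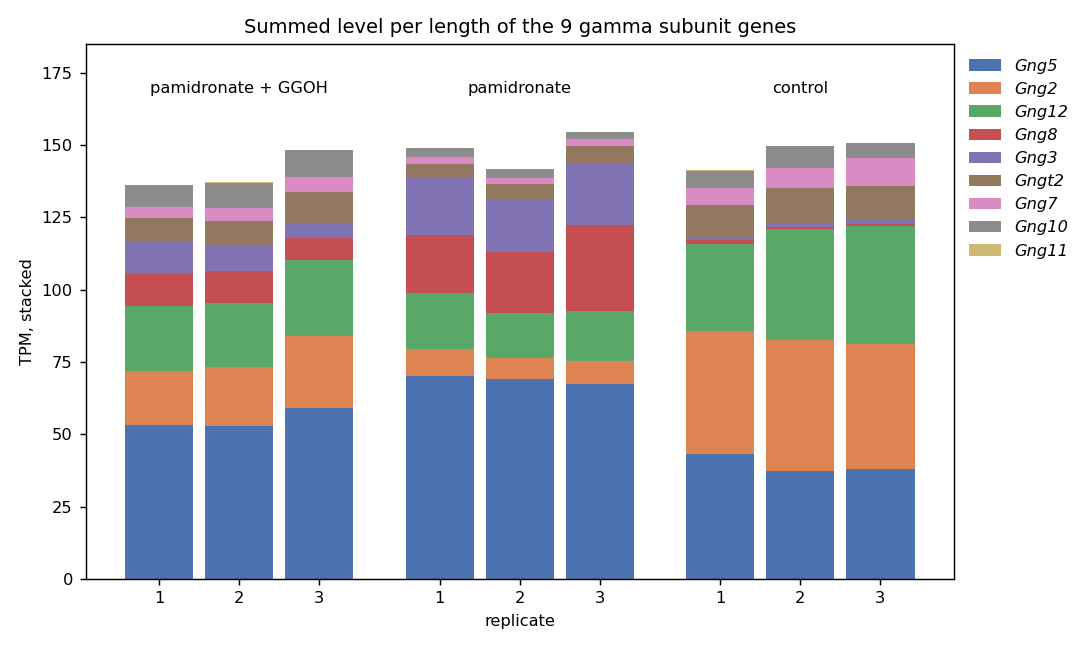
TPM of the 9 gamma subunit genes, stacked for each library, with pamidronate + GGOH, pamidronate and control from left to right. The columns reach 136.1 to 154.5 TPM, while the segment of Gng2 is largest in the controls and those of Gng8 and Gng3 are largest with pamidronate.

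Among the partners, the main beta subunit genes were lower with pamidronate. Gnb1, the most abundant beta subunit gene here, was at 166.6, 182.1 and 214.2 CPM in pamidronate + GGOH, 145.5, 155.6 and 133.5 CPM in pamidronate and 276.5, 303.8 and 300.7 CPM in control libraries, with no overlap. Pamidronate differed from control by -1.02 ± 0.10 on the log2 scale (edgeR adjusted p = 5.63e-07), and pamidronate + GGOH from pamidronate by 0.37 ± 0.10 (edgeR adjusted p = 0.00682). Of 5 beta subunit genes tested, 2 rose with pamidronate against control (Gnb3 and Gnb4) and 3 fell (Gnb1, Gnb2 and Gnb5), in a comparison where 36.2% of all genes were called higher and 32.9% lower. Gnb3, known from cone photoreceptors, was 3.11 ± 0.62 higher on the log2 scale (edgeR adjusted p = 0.000438), at 1.24 ± 0.272 CPM in pamidronate and 0.141 ± 0.127 CPM in control (SD, n = 3). The controls held 3, 0 and 4 counts of it, so it entered the test through the groups in which it was high. The summed level of the beta subunit genes was 205.3 ± 26.0 TPM in pamidronate + GGOH and 165.9 ± 10.1 in pamidronate, against 256.2 ± 21.6 in control.

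Of 16 alpha subunit genes 12 were tested, of which 4 rose, 5 fell and 3 were not called with pamidronate against control. That is 9 of 12 called, beside 69.2% of all genes. Gnat2, the alpha subunit of cone photoreceptors, stood at 12.9, 12.7 and 3.68 CPM in pamidronate + GGOH, 17.2, 18.0 and 23.7 CPM in pamidronate and 1.05, 0.728 and 0.618 CPM in control libraries. It was 4.60 ± 0.54 higher with pamidronate than in control on the log2 scale (edgeR adjusted p = 8.33e-05), and replicate 3 was the low library of pamidronate + GGOH. The controls held 18, 13 and 10 counts of Gnat2. These alone would not have passed the filter, so Gnat2 entered the test through the groups in which it was high. Gnao1, the alpha subunit most abundant in brain, was 3.98 ± 0.50 higher (edgeR adjusted p = 5.9e-06). It held 18, 31 and 31 counts in pamidronate libraries against 2, 1 and 2 in the controls, and passed the filter through the groups with pamidronate. Gna13, a widely expressed alpha subunit gene, was 1.46 ± 0.13 higher (edgeR adjusted p = 1.75e-07) and Gnal was 0.96 ± 0.18 higher (edgeR adjusted p = 0.000263). Gnai2, the main inhibitory alpha subunit of white blood cells, had a log2 fold change of -1.40 ± 0.12 (edgeR adjusted p = 1.44e-07), and Gna15, a Gq-class alpha subunit of blood cells, had a log2 fold change of -2.87 ± 0.25 (edgeR adjusted p = 1.72e-07). With GGOH against pamidronate, 4 of the 12 rose, 3 fell and 5 were not called, while 48.8% of all genes were called. Gna15 was then higher by 1.73 ± 0.26 (edgeR adjusted p = 8.69e-05), and Gna13 and Gnal were lower, with log2 fold changes of -1.11 ± 0.13 (edgeR adjusted p = 7.77e-06) and -1.48 ± 0.19 (edgeR adjusted p = 1.82e-05).

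**Figure D4:**
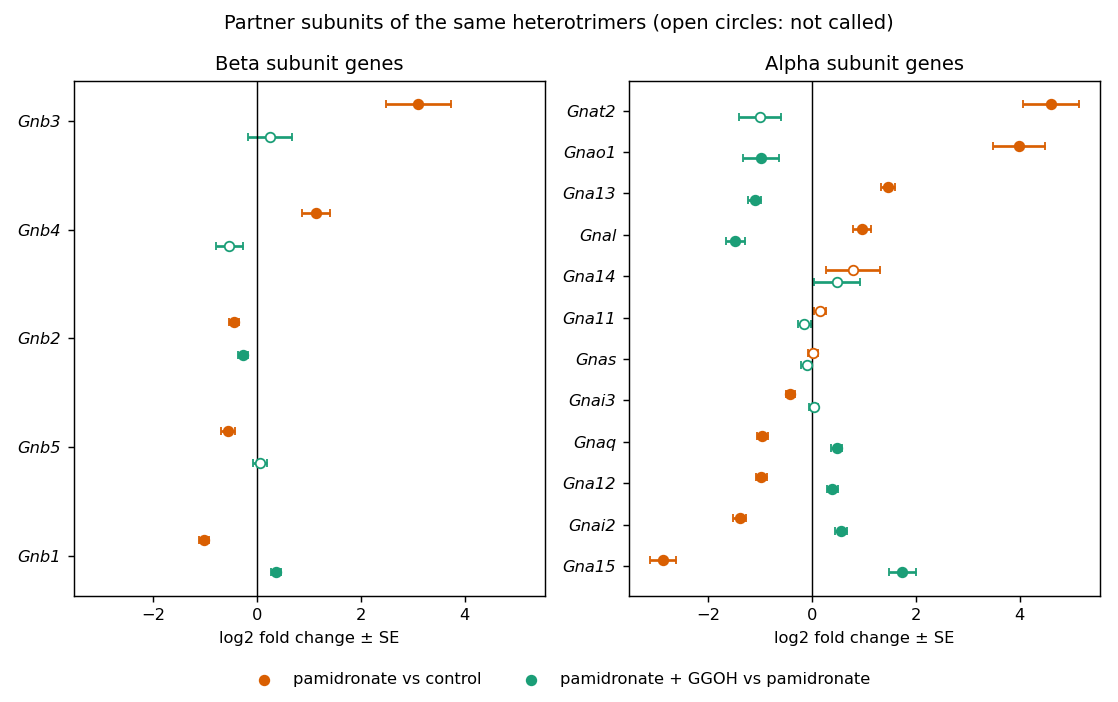
Log2 fold change ± SE of the 5 beta and 12 alpha subunit genes tested, for pamidronate against control and for pamidronate + GGOH against pamidronate. Filled circles were called and open circles were not. Gnb3, Gnat2 and Gnao1 lie farthest to the right and Gna15 farthest to the left for pamidronate against control.

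Of 19 tested effectors of the beta-gamma dimer and their adaptors, 3 rose and 12 fell with pamidronate against control, and 14 rose and 3 fell with GGOH against pamidronate. The median log2 fold change was -0.56 in the first of these comparisons and 0.55 in the second, against 0.08 and 0.00 over all genes. Of all genes 36.2% rose and 32.9% fell in the first, and 25.2% rose and 23.6% fell in the second. Pik3cg, the catalytic subunit of phosphoinositide 3-kinase gamma, averaged 107.1 ± 24.1 CPM in pamidronate + GGOH, 19.0 ± 4.37 in pamidronate and 231.4 ± 16.6 in control (SD, n = 3 each). Its log2 fold change was -3.61 ± 0.20 for pamidronate against control (edgeR adjusted p = 6.98e-08) and 2.50 ± 0.19 for pamidronate + GGOH against pamidronate (edgeR adjusted p = 3.23e-06). Elmo1, an adaptor of Rac activation, had a log2 fold change of -1.87 ± 0.17 for pamidronate against control (edgeR adjusted p = 2.24e-06).

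A chosen list of Gi-coupled and other receptors of macrophages and osteoclasts, which shares genes with the marker lists above, held 22 tested genes. With pamidronate against control 5 rose and 15 fell, with a median log2 fold change of -1.62. With GGOH against pamidronate 16 rose and 4 fell, with a median of 1.17. Over all genes the medians were 0.08 and 0.00, the shares called lower and higher with pamidronate 32.9% and 36.2%, and the share called higher with GGOH 25.2%. The summed macrophage markers were also lowest with pamidronate alone. Their part in these counts was not tested, and the list does not stand for receptors in general. P2ry6, a receptor for UDP, averaged 13.2 ± 3.10 CPM in pamidronate and 312.9 ± 21.1 in control, a log2 fold change of -4.56 ± 0.29 (edgeR adjusted p = 2.16e-06). Ccr1, a chemokine receptor, was higher with GGOH than with pamidronate alone by 3.21 ± 0.48 (edgeR adjusted p = 0.000515). Fpr2, a formyl peptide receptor, held 2 counts over the pamidronate group and 132 over the control group, so that it was 59.7-fold higher in control, with an exact 95% interval for counting error of 16.2 to 499.0. Of 14 tested RGS proteins and other regulators of the G protein cycle, 4 rose and 8 fell with pamidronate against control, and 6 rose and 3 fell with GGOH against pamidronate. Called genes thus made up 12 of 14 and 9 of 14, against 69.2% and 48.8% of all genes. Rgs1, which speeds GTP hydrolysis by Gi and Gq alpha subunits, averaged 895.6 ± 85.9 CPM in pamidronate and 23.0 ± 2.19 in control, a log2 fold change of 5.28 ± 0.35 (edgeR adjusted p = 3.47e-06). Rgs18, a regulator known from platelets, held 0 counts in pamidronate and was at least 22.0-fold lower there than in control, taking 3 counts over the group as the floor. Rgs18 and Fpr2 both passed the filter through the groups in which they were high.

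Among genes with established names, those whose log2 CPM followed each member most closely over the 9 libraries are given. They are a description, since the 3 groups alone set much of any such likeness. Predicted genes, Rik and clone-named genes and -ps pseudogenes were left out before ranking. Pearson's r was 0.998 between Gng2 and Gsn, the actin-severing protein gelsolin, and 0.997 between Gng2 and Rnase4, a secreted ribonuclease. For Gng8 it was 0.998 with Abcg4, a sterol transporter, and 0.996 with Baat, a bile acid conjugating enzyme. Baat was also nearest to Gng3, at 0.997, before Maff, a small Maf transcription factor, at 0.996. Gngt2 was nearest to Tnfrsf14 at 0.997, Gng7 to H13 at 0.996, Gng10 to Jade2 at 0.992, Gng12 to Fam168a at 0.991 and Gng5 to Chrnb1 at 0.99.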

How the data were processed

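RNA was sequenced from 9 samples, 3 in each of the groups pamidronate + GGOH, pamidronate and control, grouped by the treatment in their labels. The submitters' processing notes name Trimmomatic 0.36, DESeq and the GRCm38 build. Aligner, counter and strandedness: not given in the sources used here. All samples share a single labelled batch. The authors deposited raw counts for 49315 genes and TPM values that equal the count over exon length scaled to one sum per library, with a largest difference of 5e-05. Every per-sample column was used. Genes wholly inside the exons of a gene with at least 5000 counts over all libraries were checked. Those on the opposite strand had 0 counts in every library in 70 of 70 cases, and those on the same strand in 10 of 10. In these cases exon bases shared by 2 genes gave no counts. Inner genes under 200 exon bases or with 5000 counts or more were left out beforehand, so the check does not cover them.

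Counts were tested with edgeR 4.0.16 in R 4.3.3 (filterByExpr, TMM factors, robust quasi-likelihood fit of all 9 libraries), with Benjamini-Hochberg adjustment over 15963 genes and a threshold of 0.05. CPM are counts scaled with the TMM factors. An SE is the size of the log2 fold change divided by the root of its F value. TPM was used for levels only, with no test. The code was tested on simulated data. Intervals and floors cover counting error only, and library totals of 14356069 to 18957968 counts limit the low genes. Lipid classes were read from coding sequences of GENCODE M21 rather than from proteins, and promoter windows of chromosome 18 were not used. Copies were found with BLAST 2.17.0 at 95% identity or more over at least 100 bases.

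The members and the partner lists were chosen with earlier results of these data known. All members, alpha and beta subunits could be named, and of each other list the 2 called genes with the largest fold change in each comparison, though not every one is. For each member the 2 genes with the highest r were taken, after predicted, Rik and clone-named genes and -ps pseudogenes were left out. The alternatives tried were upper-quartile and RLE factors, no filter, a stricter filter, DESeq2 1.42.0, limma-voom (limma 3.58.1), the 2 groups compared alone, a replicate block, each library left out in turn, an adjusted p under 0.01 and a minimum 2-fold difference. Levels per unshared exon base and in CPM per kilobase were added after seeing the data.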

Additional observations from a re-analysis of the deposited data

How the results depend on the processing

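Across 19 alternatives for each of 24 member fold changes, 439 of 456 kept their direction and call, 10 lost the call, 6 gained it and 1 changed sign. The sign changed for Gng10 in pamidronate + GGOH against control, at -0.04 (edgeR adjusted p = 0.908) without control replicate 3, within a range of -0.04 to 0.21 over the libraries left out in turn, and was not called either way. Gng5 in that comparison was called without control replicate 1 (0.26, adjusted p = 0.033) and under upper-quartile scaling (0.34, adjusted p = 0.0105). Upper-quartile factors moved the median of all genes to 0.28 from 0.08 for pamidronate against control and to 0.23 from 0.02 for pamidronate + GGOH against control, and no member changed direction with them. Leaving out single libraries gave 3 to 5 members called higher for pamidronate + GGOH against pamidronate.

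Requiring a 2-fold difference left 6047 genes and 44 partner genes called for pamidronate against control, 2590 and 25 for pamidronate + GGOH against pamidronate, and 3079 and 17 for pamidronate + GGOH against control. It left 2 members higher for pamidronate + GGOH against pamidronate and 2 lower for pamidronate + GGOH against control, since fewer genes can pass. Gng2, Gng5 and Gng12 together held 71.1% of the summed TPM in pamidronate + GGOH, 63.7% in pamidronate and 81.3% in control. In CPM with no length this was 82.6% in pamidronate + GGOH, 77.0% in pamidronate and 88.5% in control, and over unshared exon bases 60.3% in pamidronate + GGOH, 58.4% in pamidronate and 72.6% in control. The summed level over the control mean was 1.0 for pamidronate + GGOH over unshared bases, and in CPM per kilobase 0.758 for pamidronate + GGOH and 0.919 for pamidronate. In CPM with no length it was 0.642 for pamidronate + GGOH and 0.683 for pamidronate.

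Replicate numbers showed no clear pairing of the samples. Same-numbered libraries had deviations correlated at -0.224 to 0.204, and differently numbered ones at -0.215 to 0.177. With 3 libraries a group, this check cannot exclude pairing. With a replicate block 10980 genes were called for pamidronate against control, 7622 for pamidronate + GGOH against pamidronate and 8275 for pamidronate + GGOH against control, and the counts of members called did not change. Counts of 8 to 26 a library limit Gng8 and Gng3 in the controls and Gng10 with pamidronate.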

Other observations

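Genes listed for the folding of the beta-gamma dimer and the alpha subunit were called in both directions. Of 13 genes of this list tested, 2 rose, 7 fell and 4 were not called with pamidronate against control, with a median log2 fold change of -0.24. Over all genes tested 36.2% rose, 32.9% fell and the median was 0.08. Dnajc25, a J-domain protein gene on this list, had a log2 fold change of 1.01 ± 0.17 (edgeR adjusted p = 0.000105). Like Gng10, it shares exon bases (348) with Gm20503, and a role of Dnajc25 in folding these subunits was not tested. With GGOH against pamidronate, Pdcl, the phosducin-like cofactor of beta-gamma assembly, had a log2 fold change of -0.75 ± 0.09 (edgeR adjusted p = 1.93e-05), at 48.8 ± 3.97 CPM in pamidronate + GGOH and 81.7 ± 7.91 CPM in pamidronate (SD, n = 3 each).

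Of 8 genes of prenylation and CAAX processing, 4 rose and 2 fell with pamidronate against control, and 2 rose and 5 fell with GGOH against pamidronate. Of all genes 69.2% were called in the first comparison, 36.2% higher and 32.9% lower. In the second 48.8% were called, 25.2% higher and 23.6% lower. Icmt, which methylates the prenylated cysteine, averaged 74.0 ± 1.10 CPM in pamidronate and 40.6 ± 3.40 in control, a log2 fold change of 0.87 ± 0.10 (edgeR adjusted p = 1.7e-06). Zmpste24, a CAAX protease, averaged 39.6 ± 5.003 CPM in pamidronate and 100.5 ± 14.3 in control, a log2 fold change of -1.34 ± 0.12 (edgeR adjusted p = 2.79e-07). Pggt1b, a subunit of the enzyme that attaches the geranylgeranyl lipid, was lower with GGOH than with pamidronate alone, with a log2 fold change of -0.75 ± 0.10 (edgeR adjusted p = 3.08e-05). Fdps, the farnesyl diphosphate synthase gene, was lower in the same comparison by a log2 fold change of -1.73 ± 0.18 (edgeR adjusted p = 4.26e-06). Against control, Fdps was higher with pamidronate (0.75 ± 0.17, edgeR adjusted p = 0.00147) and lower with pamidronate + GGOH (-0.98 ± 0.18, edgeR adjusted p = 0.000546).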
